A study of Arabidopsis thaliana with 42 samples.

Results

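The midday step of wild-type Arabidopsis thaliana seedlings, from 6 to 10 hours after lights on (ZT6 to ZT10), was followed in 6 RNA-seq libraries, 3 per time, out of the 42 of the series. All were Col-0 seedlings grown at 22 °C on MS medium with 16 h of light and 8 h of dark per day and harvested at an age of 9 days, so both times lay in the light. The members were the 3 ZT6 and the 3 ZT10 wild-type columns of the long-day count table. The 3 ZT6 and 3 ZT10 libraries of link1link2, a double mutant of the paired clock co-activator genes LNK1 and LNK2 in the same ecotype and growth regime, served for a test of the difference between the steps. The fit across all genes also held the other times of both genotypes, 36 long-day libraries in all, and the continuous-light libraries were not used. How many seedlings made up a library is not given in the labels, nor whether the 3 libraries of a group were grown apart, and p-values therefore cover no more than the spread among these libraries, which may be technical.

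In the plant circadian clock, MYB-like factors made around dawn, such as CCA1 and LHY, hold down genes of the afternoon and evening, and the products of those genes in turn repress the morning genes. LNK proteins work with the REVEILLE factor RVE8 to raise afternoon and evening genes such as PRR5 and TOC1. The clock also sets the daily timing of light harvesting, pigment synthesis, starch turnover, cold-response genes and growth, and the window between noon and afternoon is when the dawn genes have run down and the evening genes come up.

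The 6 libraries held 7724307 to 12109520 counts each. Chloroplast-encoded genes took 1.76%, 0.721% and 0.820% of the counts in ZT6 libraries A, B and C, and 0.429%, 3.31% and 0.481% at ZT10. Library B of ZT10 stood apart from the other two of its group. The chi-square of its counts per degree of freedom was 19.2 against library A and 22.8 against C, and the 4 other same-time pairs lay between 1.91 and 5.44, so no pair agreed within sampling noise. No difference in the share between the times was detected (1.1% ± 0.57 SD against 1.41% ± 1.65, n = 3 each, exact two-sided permutation p = 1, where 0.1 is the smallest p this design allows). Without ZT10 library B, 3963 genes were called in place of 4621. Leaving out any 1 of the 6 libraries gave 3849 to 4056, so this drop was not particular to library B. Single results that changed without library B are given below. In CPM (counts scaled to a common library size, with TMM factors), LNK1 and LNK2 had 143 to 153 and 258 to 321 in the wild-type ZT6 libraries, and 46.8 to 48.9 and 14.9 to 18.8 CPM in those of link1link2. At ZT10 the genotypes lay closer, with 37.7 to 40.8 and 28.5 to 41.2 CPM in wild type and 29.8 to 33.1 and 18.4 to 20.7 CPM in link1link2, and still did not overlap.

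The tissue was checked against cell-type markers. The 21 antenna genes of green tissue summed to 147600 to 153500 CPM at ZT6, and 10 root markers to 3402 to 3748 CPM at ZT6 and 3583 to 3972 CPM at ZT10, so both shoot and root transcripts were present. The 8 seed markers summed to between 0.224 and 10.4 CPM in the 6 libraries. None of the 10 root markers and none of the 11 dividing-cell markers was called, and their median log2 changes were -0.0030 and -0.025. Of 8 guard-cell markers 3 fell and 1 rose, of 6 epidermal markers 3 fell, and of 9 vascular markers 2 rose and 1 fell. Among all genes tested 10.6% were called higher at ZT10 and 11.9% lower. KAT1, a guard-cell potassium channel, went from 37.3 to 21.2 CPM, and PDF1 and ATML1, genes of the epidermis, fell by 0.42 and 0.42 on the log2 scale. In such bulk libraries fewer cells of a type and less RNA per cell cannot be told apart, and the part of these markers in the results below was not tested.

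Of 20518 genes tested, 4621 differed between ZT10 and ZT6 at an adjusted p under 0.05 (22.5%; edgeR quasi-likelihood test, Benjamini-Hochberg adjustment). Of these, 2173 were higher at ZT10 (10.6% of genes tested) and 2448 were lower (11.9%). The median change among all genes tested was 0.002 on the log2 scale. Most called changes were small, with a median size of 0.49, and 861 genes changed by at least 2-fold. Falls prevailed among them, with 545 genes lower (2.66%) and 316 higher (1.54%), and among changes of at least 4-fold, with 147 lower and 68 higher.

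Across the 6 times of the day, the 316 genes at least 2-fold higher at ZT10 had their lowest wild-type mean at ZT2 in 177 cases and at ZT6 in 106. Their highest mean fell at ZT10 for 172 genes, at ZT14 for 83, at ZT18 for 28 and at ZT22 for 32. Among all genes tested 13.3% were highest at ZT10. The 545 genes at least 2-fold lower were mostly highest in the morning, 306 of them at ZT2 and 183 at ZT6. Their lowest mean came at ZT10 for 194, at ZT14 for 109 and at ZT18 for 191. ZT6 and ZT10 themselves are part of these rankings, so the counts describe the profiles and test nothing.

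Dawn and morning clock genes fell almost as a block. Of the 16 on the list, all tested, 14 fell, 12 of them at least 2-fold, 1 rose and 1 did not pass the test. Without members that overlap a locus with at least 50% as many counts as their own, 12 of 14 fell. Their median change was -2.63 on the log2 scale, beside 0.002 for all genes. In each of the 16 the ZT6 and ZT10 libraries did not overlap, which held for 38.1% of all genes tested. CCA1, the MYB-like repressor at the core of the morning loop, had 85.3, 80.9 and 73.6 CPM at ZT6 and 1.45, 2.36 and 2.48 CPM at ZT10 in libraries A, B and C. Every ZT10 library was far below every ZT6 library, a fall of 5.23 on the log2 scale (SE 0.15, adjusted p = 5.42e-28). Here and below, SE is the size of the change divided by the square root of the F statistic of its test. It is derived from the test, not estimated separately. Where a group has few counts, as for COR27, LNK3 and AT1G07050, it can be too small. LHY, its close relative, was already low at ZT6, with 13.2, 17 and 11.4 CPM at ZT6 and 1.23, 1.8 and 2.89 CPM at ZT10. It fell further by 2.74 (SE 0.18, adjusted p = 4.92e-16), and the groups did not overlap.

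The pseudo-response regulators that repress CCA1 and LHY through the day parted. PRR9, the earliest of the series, had 58.8, 59.9 and 62.3 CPM at ZT6 and 2.01, 1.8 and 1.74 CPM at ZT10, a fall of 5.02 (SE 0.15, adjusted p = 5.25e-28). PRR7, the next in order, kept much of its level, with 228, 215 and 238 CPM at ZT6 and 174, 142 and 145 CPM at ZT10. It fell by 0.57 (SE 0.078, adjusted p = 1.72e-07). Both were highest at ZT6 among the 6 times. So within this 4 h step PRR9 dropped to 1.74 to 2.01 CPM and PRR7 was still at 142 to 174 CPM.

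The LNK family fell in all 4 members, by very different amounts. LNK3 had 32.8, 32 and 30.6 CPM at ZT6 and 0.782, 0 and 0.578 CPM at ZT10, the ZT10 values standing on 0 to 7 counts per library, and fell by 5.97 on the log2 scale (SE 0.19). LNK4 had 33.5, 36.2 and 37 CPM at ZT6 and 2.12, 3.06 and 1.82 CPM at ZT10 and LNK2 had 306, 258 and 321 CPM at ZT6 and 41.2, 30.0 and 28.5 CPM at ZT10, falls of 3.98 and 3.15. LNK1 kept the largest part of its ZT6 level, with 152, 149 and 143 CPM at ZT6 and 40.8, 38.8 and 37.7 CPM at ZT10, a fall of 1.93 (SE 0.074). In all 4 genes no ZT10 library reached a ZT6 library.

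REVEILLE genes, which encode MYB-like factors related to CCA1, mostly fell, with 1 exception. RVE8, the partner of the LNK proteins, had 14.2, 11.3 and 15.9 CPM at ZT6 and 1.45, 2.08 and 2.4 CPM at ZT10, and RVE1, which links the clock to auxin, had 28, 30.6 and 25.2 CPM at ZT6 and 4.8, 4.3 and 5.29 CPM at ZT10. Their falls were 2.76 and 2.52. RVE4 and RVE7 fell by 1.38 and 1.55. RVE2 rose as the only member of the list to do so, from 10.5 to 13.5 CPM at ZT6 to 55 to 62.4 CPM at ZT10, a change of 2.28 (SE 0.11, adjusted p = 3.12e-19). Its lowest mean of the day was at ZT6 and its highest at ZT22.

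**Figure D1:**
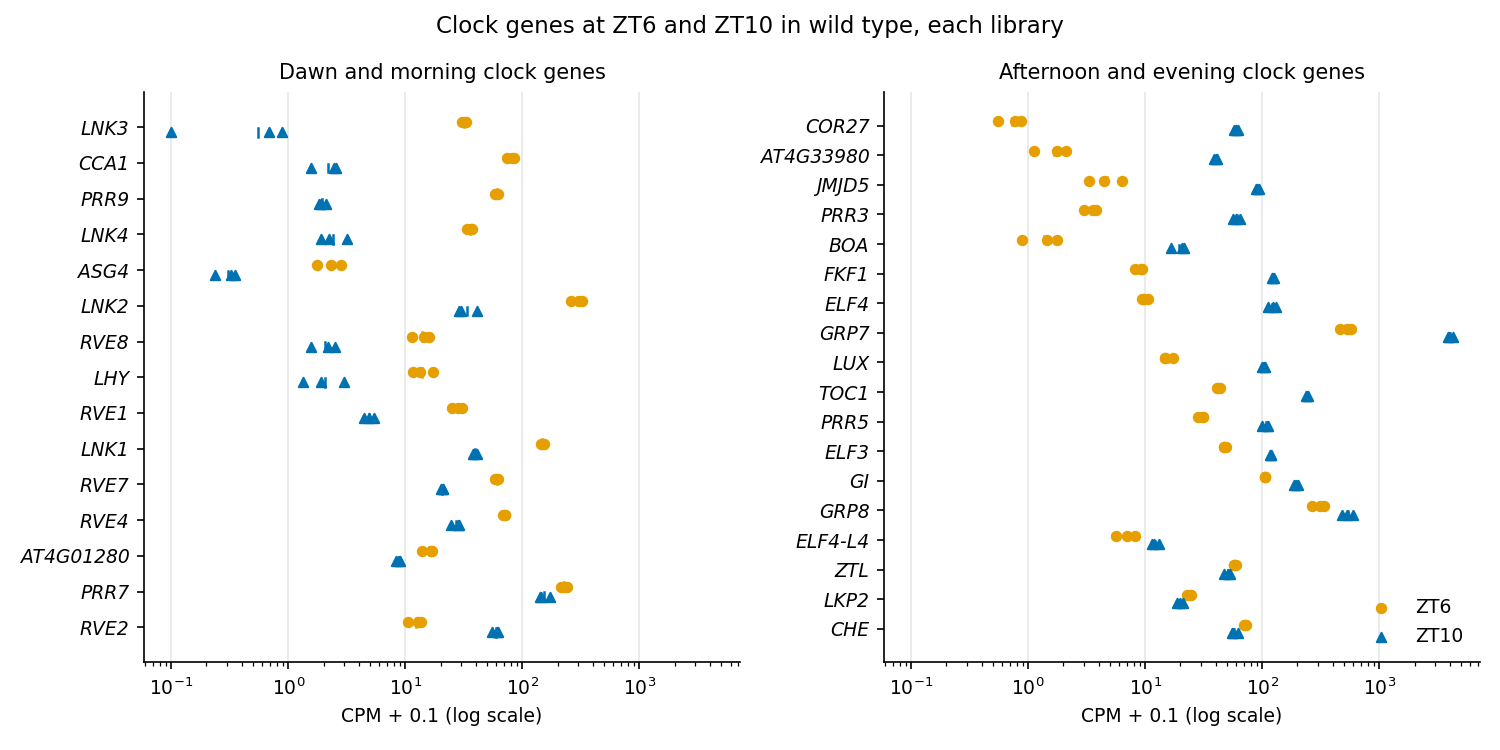
Levels of the called clock genes in each wild-type library (CPM + 0.1, log axis), with 3 circles for ZT6, 3 triangles for ZT10 and a short bar at each mean. The 14 falling dawn genes have all triangles left of the circles, and RVE2 and 15 of the evening genes have them on the right.

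Afternoon and evening clock genes rose. Of the 21 tested, 15 rose, 12 of them at least 2-fold, 3 fell by small amounts and 3 did not pass, with a median change of 1.84. COR27, a repressor of clock genes known from its response to cold, was barely detected at ZT6 and clear at ZT10, with 0.451, 0.67 and 0.77 CPM at ZT6 and 57.2, 60.1 and 62.5 CPM at ZT10. Its change of 6.55 (SE 0.18, adjusted p = 8.69e-30) equals a 93.9-fold rise, from 4 to 6 counts per library at ZT6. AT4G33980 showed the same pattern, with 1.01, 2.01 and 1.67 CPM at ZT6 and 38.4, 41 and 40.5 CPM at ZT10, a change of 4.66.

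TOC1, the evening repressor of CCA1, had 41.9, 43.8 and 41.2 CPM at ZT6 and 243, 234 and 245 CPM at ZT10. The 3 libraries of each time lay close together, and the change was 2.51 (SE 0.06, adjusted p = 2.35e-31). PRR5, its afternoon relative, rose from 30.1 ± 1.45 to 107 ± 6.71 CPM (SD, n = 3), and PRR3, which protects TOC1 protein, from 3.37 ± 0.418 to 60.3 ± 4.12 CPM. All 3 were highest at ZT10 among the 6 times. GI, a large scaffold protein of the clock and of flowering, was at 106, 104 and 105 CPM at ZT6 and 195, 186 and 201 CPM at ZT10, a rise of 0.88 (SE 0.10) that stayed under 2-fold.

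The evening complex, formed by ELF3, ELF4 and LUX, rose in all parts but unevenly. ELF4 had 9.37, 9.72 and 10.5 CPM at ZT6 and 111, 124 and 130.4 CPM at ZT10, a change of 3.63 (SE 0.11). LUX, its DNA-binding member, had 17.3, 14.6 and 14.8 CPM at ZT6 and 99.3, 104 and 105 CPM at ZT10, a change of 2.72 (SE 0.085). ELF3 moved least, from 47.4 ± 0.997 to 118 ± 0.776 CPM (SD, n = 3), a change of 1.32. BOA, a close relative of LUX, came up from 0.79 to 1.67 to 16.6 to 21.2 CPM, a change of 3.94.

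GRP7 and GRP8 encode RNA-binding proteins of a slave oscillator. GRP7 had 533, 462 and 573 CPM at ZT6 and 3976, 3852 and 4234 CPM at ZT10, a 7.69-fold rise (log2 2.94, SE 0.11, adjusted p = 2.71e-21), and GRP8 rose by 0.82. JMJD5, a histone demethylase gene tied to the clock, had 6.21, 3.24 and 4.37 CPM at ZT6 and 90.2, 93.2 and 87.8 CPM at ZT10, a change of 4.29 (SE 0.13). FKF1, the blue-light F-box receptor of the flowering pathway, showed 9.03, 8.05 and 9.24 CPM at ZT6 and 123, 121 and 126 CPM at ZT10, a change of 3.81. FKF1 overlaps a locus with at least 50% as many counts as its own, so its value is uncertain in counts that may not use strand. CHE, a repressor of CCA1, was among the 3 that fell, by 0.31.

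The evening element, the letters AAAATATCT on either strand, is the sequence to which CCA1 and the REVEILLE factors bind. It was searched, with 6 other motifs, in the window from 250 bases before to 50 bases after the annotated gene start of 20331 tested nuclear genes (RefSeq annotation, build TAIR10.1). The stretches below, 5′ to 3′ on the strand of the gene, hold the copy before and nearest to the start, with up to 20 bases on each side and none beyond the start. They are shown because they belong to risers that the results turn on and, for comparison, to genes that hold the element and fell. Capitals mark evening elements in either orientation. The stretches lie at chr5:17199911-17199950 (minus strand) for COR27, chr5:24674792-24674840 (plus strand) for TOC1, chr3:17182969-17183017 (plus strand) for LUX, chr5:24003825-24003873 (plus strand) for BOA, chr5:8358705-8358753 (minus strand) for PRR5, chr2:9266560-9266608 (minus strand) for GRP7, chr5:9261426-9261474 (plus strand) for PWD and chr3:2890602-2890650 (minus strand) for MT2A, which rose, and at chr3:489628-489676 (minus strand) for COL2 and chr1:6308265-6308313 (minus strand) for RVE7, which fell.
COR27: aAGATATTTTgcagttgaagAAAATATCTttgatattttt
TOC1: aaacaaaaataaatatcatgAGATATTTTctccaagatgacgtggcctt
LUX: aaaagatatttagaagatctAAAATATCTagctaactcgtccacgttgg
BOA: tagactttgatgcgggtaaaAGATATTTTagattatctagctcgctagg
PRR5: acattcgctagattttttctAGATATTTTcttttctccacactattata
GRP7: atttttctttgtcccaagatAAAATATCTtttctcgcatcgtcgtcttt
PWD: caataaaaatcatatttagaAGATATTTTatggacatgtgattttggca
MT2A: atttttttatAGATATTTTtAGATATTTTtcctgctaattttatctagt
COL2: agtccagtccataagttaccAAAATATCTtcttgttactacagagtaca
RVE7: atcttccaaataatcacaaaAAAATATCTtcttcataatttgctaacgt

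An evening element was present in 57 of the 316 windows of genes at least 2-fold higher at ZT10 (18%), in 12 of the 545 windows of genes at least 2-fold lower (2.2%) and in 605 of all 20331 (2.98%). By the size of the change, the share was 23.5% of 68 genes at least 4-fold higher, 16.5% of those 2 to 4-fold higher, 5.91% of those higher by less, and 2.36% of the genes not called. Among falls the 3 size classes held 2.04% to 2.90%. Most windows of rising genes thus had no such letters, and COL2 and RVE7 above had them and fell.

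The other motifs were shared more evenly. The CCA1-binding site AAAAATCT, which differs from the evening element in length and letters, was in 10.1% of windows of the higher genes, 7.52% of the lower and 8.01% of all. Windows of the lower genes held the G-box CACGTG in 16.9%, the HUD element CACATG in 19.8% and the morning element CCACAC in 15.4%, beside 13.6%, 13.3% and 10.4% of the higher genes and 8.76%, 12.9% and 7.97% of all. The protein box ATGGGCC was in 5.70% and 4.40% of the higher and lower genes against 9.92% of all, and the telo-box AAACCCTAA in 1.58% and 1.28% against 3.13%. No motif contains another, both strands were searched for each, and a match of letters shows neither binding nor a cause. Neighbouring genes can share a window.

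**Figure D2:**
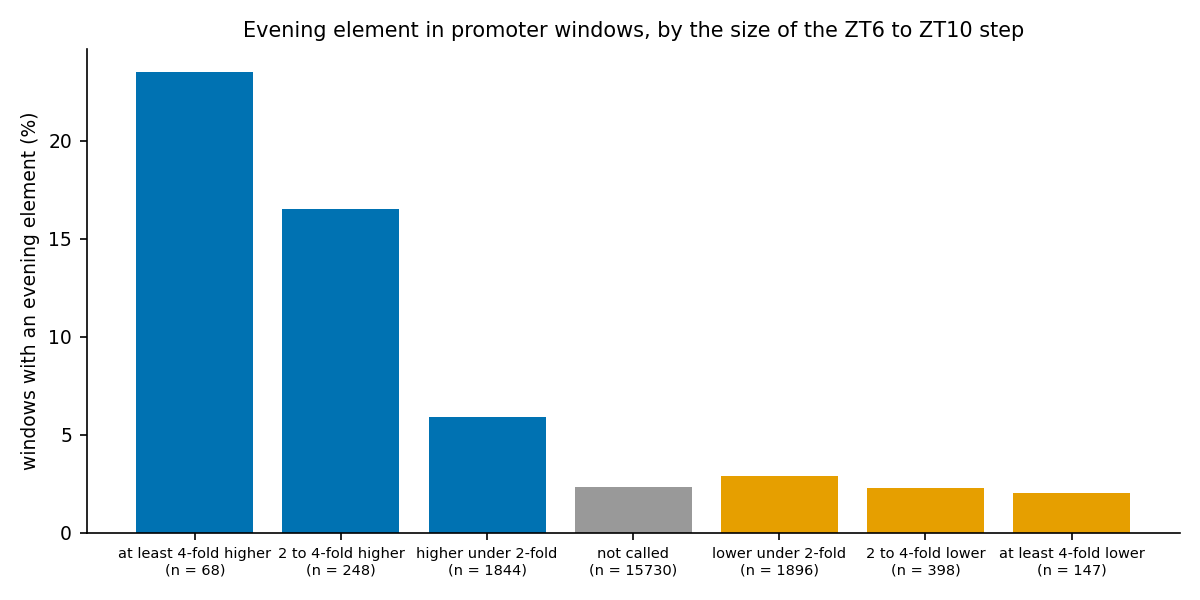
Share of promoter windows with an evening element (percent, y axis) in classes of the wild-type ZT6 to ZT10 change, with the number of windows under each bar. The share is 23.5% among genes at least 4-fold higher, 2.36% among genes not called and 2.04% among genes at least 4-fold lower.

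Genes of photoperiodic flowering moved both ways, with more falls than rises. Of 18 tested, 10 fell, 3 rose and 5 did not pass (median -0.54). The CYCLING DOF FACTOR genes, repressors of CONSTANS, fell, with 43.5, 37.7 and 37.1 CPM at ZT6 and 11.4, 11.7 and 10.5 CPM at ZT10 for CDF1, and falls of 1.83, 1.07 and 1.7 for CDF1, CDF2 and CDF3. COL2 and COL5, relatives of CONSTANS, fell by 3.35 and 1.67, and TEM2, a repressor of FT, by 1.04. COL9 went the other way, with 7.79, 8.16 and 7.32 CPM at ZT6 and 124, 136 and 128 CPM at ZT10, a change of 4.05 (SE 0.093, adjusted p = 6.52e-32). FT, the mobile flowering signal, was low at both times, 0.226 to 0.642 CPM at ZT6 and 2.36 to 3.46 CPM at ZT10, and rose by 2.59 (SE 0.44). SOC1, which acts after FT, fell by 0.69.

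Light-signalling genes fell broadly, with 26 of 35 lower, 14 of them at least 2-fold, 2 higher and 7 not called (median -0.79). B-box transcription factor genes led. BBX28 had 68.7, 63.6 and 73.1 CPM at ZT6 and 8.49, 7.64 and 7.19 CPM at ZT10, a fall of 3.14 (SE 0.11), and BBX29 had 10.2, 9.95 and 8.6 CPM at ZT6 and 1.01, 0.694 and 1.16 CPM at ZT10. BBX30 fell to almost no counts, from 2.05 to 4.29 to 0 to 0.139 CPM. BBX16, which is on none of the lists and was among the 12 largest falls, had 54.3, 54.2 and 56.4 CPM at ZT6 and 1.9, 1.39 and 1.57 CPM at ZT10. BBX22 was 1 of the 2 genes that rose, by 0.30, and the other was HY5, the bZIP factor that promotes light-grown development, by 0.57. Among the factors that drive shade and warmth growth, PIF5 fell from 139 ± 1.69 to 44.5 ± 5.46 CPM (SD, n = 3), and PIF4 much less, by 0.57. HFR1, which holds PIF proteins back, fell by 1.56. The blue-light receptor gene CRY1 and SPA1, a partner of the COP1 ubiquitin ligase, fell by 0.93 and 0.97.

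Auxin and cell-elongation genes fell too. Of 22 tested, 16 were lower, 10 of them at least 2-fold, 2 were higher and 4 were not called, with a median of -1.01. YUC8, an auxin synthesis enzyme gene, had 8.69, 11.1 and 9.37 CPM at ZT6 and 3.13, 3.75 and 3.55 CPM at ZT10, and IAA29, an early auxin-response gene, had 11.7, 17 and 15.4 CPM at ZT6 and 3.69, 5.83 and 5.12 CPM at ZT10. Their falls were 1.48 (SE 0.19) and 1.60 (SE 0.24). IAA19 and GH3.5, which encodes an enzyme that conjugates auxin, fell by 1.43 and 1.44. The expansin genes EXPA8 and EXPA1, whose products loosen cell walls, fell by 1.19 and 1.06. The 2 that rose were the wall-remodelling genes XTH9, by 0.60, and XTH4, by 0.49. Gibberellin and brassinosteroid genes moved both ways, with 7 of 13 lower and 3 higher. GA20OX1, a gibberellin synthesis gene, went from 2.14 to 3.13 to 0.559 to 1.25 CPM, and GID1A, a gibberellin receptor gene, from 24.9 to 25.6 to 40.8 to 41.8 CPM.

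Genes for the light-harvesting antenna of both photosystems were lower in 18 of 21 cases, 6 of them at least 2-fold, with a median of -0.66. Their summed level of 147600 to 153500 CPM in the ZT6 libraries became 79260 to 92130 CPM at ZT10, and the groups did not overlap. LHCB2.3 had 2255, 2306 and 2432 CPM at ZT6 and 347, 259 and 248 CPM at ZT10, a fall of 3.03 (SE 0.17, adjusted p = 8.74e-14), and its sisters LHCB2.2 and LHCB2.1 fell by 1.92 and 1.83. LHCB3 and LHCB4.2 fell by 1.11 and 1.21. LHCA1, of the photosystem I antenna, fell by 0.97. The LHCB1 and LHCB2 genes are near-identical copies whose reads the counting could divide between them, so each of these values is uncertain. LHCB1.3 fell by 0.31, a call that was lost without ZT10 library C (-0.23, adjusted p = 0.102). LHCB4.3 was the single member that rose, from 4.37 to 4.8 to 6.61 to 9.05 CPM, and without ZT10 library A it was no longer called (0.54, adjusted p = 0.0935). Within the ZT10 group, library B lay between A and C for LHCB2.3, LHCB3 and LHCB4.2.

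In chlorophyll synthesis, 11 of 19 genes fell, 7 of them at least 2-fold, and 1 rose (median -0.36). Genes of controlled steps were among those that fell. HEMA1, the first committed step, had 574, 587 and 604 CPM at ZT6 and 89.4, 101 and 76.7 CPM at ZT10, a fall of 2.73 (SE 0.16, adjusted p = 1.23e-13). CHLH, the large subunit of magnesium chelatase, had 3201, 3012 and 3035 CPM at ZT6 and 1150, 1164 and 1028 CPM at ZT10, and GUN4, its activator, had 299.7, 289 and 295 CPM at ZT6 and 63.1, 59.2 and 57.8 CPM at ZT10. Their ZT10 libraries all lay below their ZT6 libraries, with falls of 1.47 and 2.3. CRD1, of the cyclase that forms the fifth ring, and CAO, the chlorophyll b synthase gene, fell by 1.35 and 2.22. Of the paired GOLDEN2-LIKE factors that drive these genes, GLK2 fell from 235 ± 5.43 to 46.2 ± 2.61 CPM and GLK1 from 209.7 ± 2.37 to 155 ± 1.87 CPM (SD, n = 3). PORA was at 4.4 to 5.7 CPM at ZT6 and 0.559 to 1.67 CPM at ZT10.

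Carbon fixation moved little by comparison. Of 19 Calvin cycle genes 11 fell and 5 rose, with 2 falls of at least 2-fold and a median of -0.19. Without ZT6 library A, 7 of them fell. RCA, which encodes the activase of Rubisco, had 9071, 8426 and 8622 CPM at ZT6 and 3491, 3449 and 3313 CPM at ZT10, a fall of 1.35 (SE 0.071), and FBA1, a plastid aldolase gene, fell by 1.1. CP12-2, a redox switch of the cycle, rose by 0.75, and the transketolase gene TKL1 by 0.32. In photorespiration 9 of 12 genes fell and 1 rose (median -0.30). CAT2, the leaf peroxisome catalase gene, fell far more than the rest, with 873, 857 and 826 CPM at ZT6 and 182, 215 and 172 CPM at ZT10, a fall of 2.17 (SE 0.15). GGAT1, an aminotransferase of the peroxisome, fell by 0.83, and GDCH, the H protein of glycine decarboxylase, rose by 0.47.

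The nuclear genes for plastid sigma factors, which guide the chloroplast RNA polymerase, did not move together: 2 of 6 fell and 2 rose. SIG5, a light- and stress-responsive factor, had 79.2, 82.7 and 77.8 CPM at ZT6 and 11.5, 9.3 and 9.09 CPM at ZT10, a fall of 3.01 (SE 0.092, adjusted p = 9.37e-28), and SIG1 had 162, 148 and 169 CPM at ZT6 and 49.6, 51.5 and 39.1 CPM at ZT10, a fall of 1.78. SIG4 rose by 0.72. The other riser lost its call without ZT10 library B, and also without ZT6 library A or C, which left 1. Photoprotection genes gave 3 falls and 1 rise in 8, OHP1, a one-helix protein gene, with a fall of 0.99 and VDE, violaxanthin de-epoxidase, with a rise of 0.60. Of 18 carotenoid and plastid isoprenoid genes 9 fell and 1 rose. BCH2, a carotene hydroxylase gene, went from 17.3 ± 0.368 to 0.49 ± 0.0712 CPM (SD, n = 3), the largest fall of the list (5.09 on the log2 scale, SE 0.35). BCH2 overlaps a locus with at least 50% as many counts as its own, so its value is uncertain. DXS and HDR, the first and last enzymes of the plastid isoprenoid route, had 954, 967 and 943 CPM at ZT6 and 372, 380.4 and 352 CPM at ZT10 and 368, 356 and 374 CPM at ZT6 and 142, 147 and 130.1 CPM at ZT10. LUT1 rose by 0.26.

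**Figure D3:**
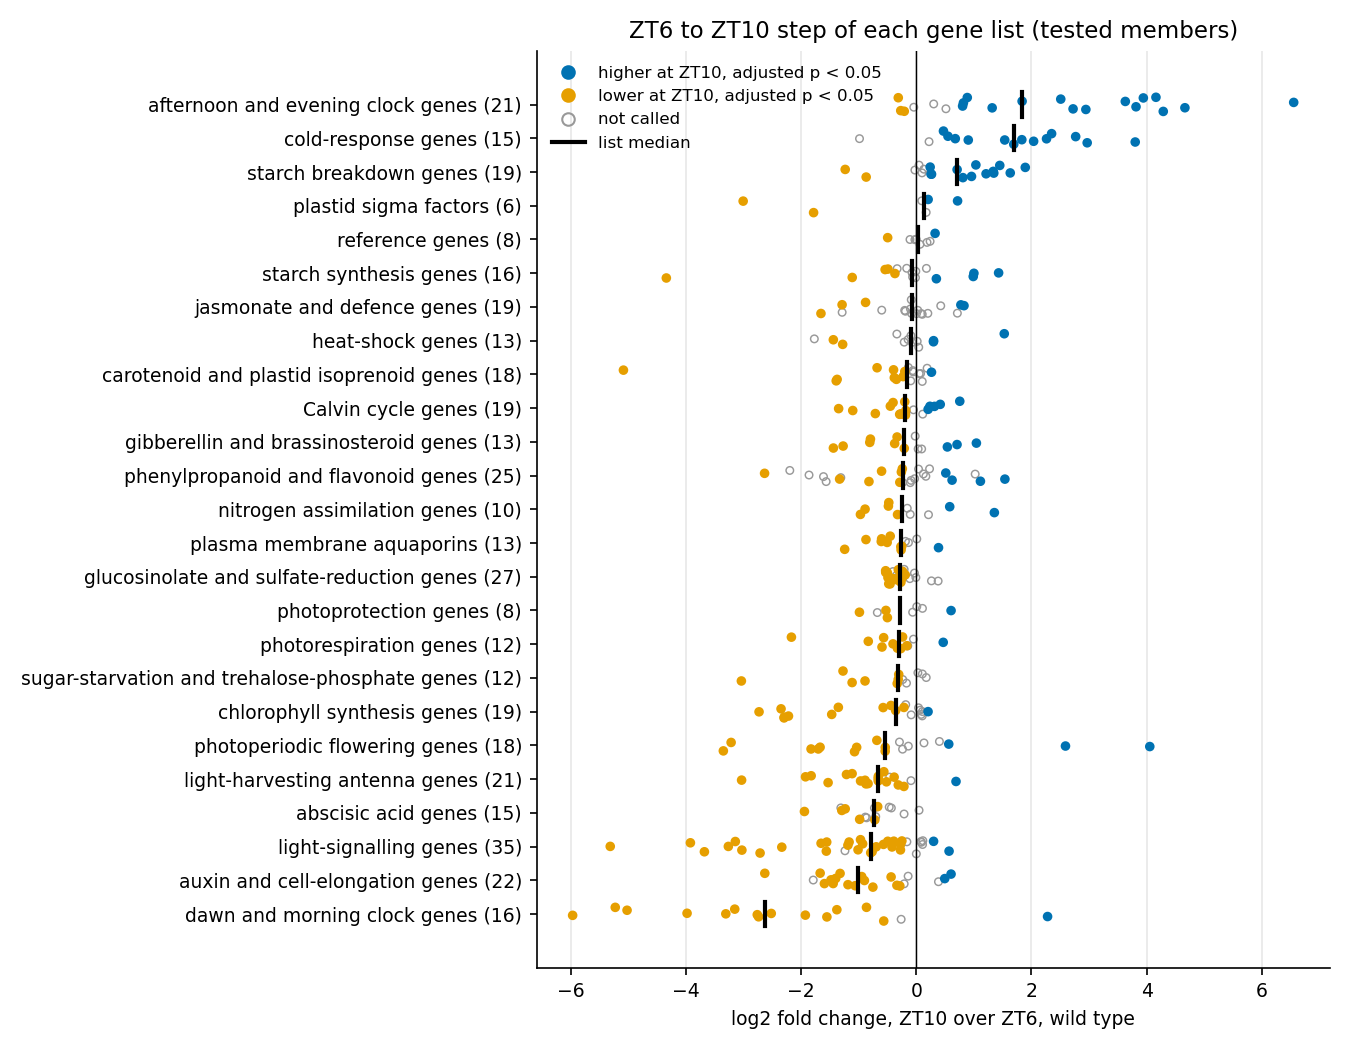
Change from ZT6 to ZT10 in wild type (log2, x axis) of every tested member of the 25 gene lists, with called genes filled, others open and a black bar at the list median. The medians run from -2.63 for dawn and morning clock genes to 1.84 for afternoon and evening clock genes.

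Starch breakdown genes rose and starch synthesis genes divided. Of 19 breakdown genes 13 were higher, 7 of them at least 2-fold, 2 lower and 4 not called, with a median of 0.71. PWD and GWD1 encode the dikinases that phosphorylate starch granules. PWD had 111, 108 and 115 CPM at ZT6 and 421, 397 and 419 CPM at ZT10, a change of 1.89 (SE 0.071, adjusted p = 1.21e-24), and GWD1 had 339.8, 332 and 348 CPM at ZT6 and 893, 793 and 888 CPM at ZT10, a change of 1.34 (SE 0.076). SEX4, which removes these phosphates, rose by 1.03. Among the enzymes that cut the chains, the debranching enzyme gene ISA3 and the beta-amylase gene BAM3 rose by 1.34 and 1.63, and AMY3 by 0.71. PHS2, a cytosolic phosphorylase gene, rose by 1.45, and DPE2, which works on maltose, by 0.26. The 2 that fell were BAM1, by 0.87, and BAM9, by 1.24, whose locus overlaps one with at least 50% as many counts.

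In starch synthesis 5 of 16 fell, 4 rose and 7 were not called, with a median of -0.07. GBSS1, which makes the amylose fraction, had 83, 74.5 and 68.3 CPM at ZT6 and 4.36, 2.64 and 3.88 CPM at ZT10, a fall of 4.34 (SE 0.18, adjusted p = 1.78e-18). SS2, another starch synthase gene, fell by 1.11. SS4, which starts granules, the phosphoglucomutase gene PGM1 and the branching enzyme gene SBE2.1 rose by 0.99, 1.00 and 1.43. The sugar-exporter gene SWEET12 rose with 12.3, 16 and 11.7 CPM at ZT6 and 47, 46.5 and 43.9 CPM at ZT10, and SWEET11, which shares its role in loading the phloem, rose by 0.54.

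Sugar-starvation and trehalose-phosphate genes fell or did not pass, with 7 of 12 lower and none higher (median -0.31). ASN1, an asparagine synthetase gene that is high in carbon shortage, had 51.6, 84.4 and 81.8 CPM at ZT6 and 8.6, 14.2 and 5.37 CPM at ZT10. Its libraries spread widely at both times, and the fall was 3.04 (SE 0.43, adjusted p = 4.46e-06). SEN1, a gene of dark and senescent leaves, fell by 1.27, and TPS8, a trehalose-phosphate synthase family gene, by 1.11. In nitrogen assimilation 5 of 10 fell and 2 rose. The nitrate reductase genes NIA1 and NIA2 had 254, 280.3 and 272 CPM at ZT6 and 132, 189 and 93.1 CPM at ZT10 and 662, 767 and 749 CPM at ZT6 and 356, 511 and 311 CPM at ZT10, with ZT10 library B the highest of its group. NIA1 fell by 0.97 (adjusted p = 0.00647), and without ZT10 library C by 0.73 (adjusted p = 0.0681). NRT1.7, a nitrate transporter gene of the phloem, rose from 28.5 ± 1.68 to 72.9 ± 4.51 CPM (SD, n = 3).

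Cold-response genes rose, at a stated growth temperature of 22 °C. Of 15 tested 13 were higher, 9 of them at least 2-fold, none was lower and 2 were not called, with a median of 1.69. COR15A, which encodes a protein that shields chloroplast membranes on freezing, had 95.3, 95.2 and 91.3 CPM at ZT6 and 561, 517 and 838 CPM at ZT10, a change of 2.77 (SE 0.27, adjusted p = 7.91e-09). COR15B had 37.8, 44.2 and 44 CPM at ZT6 and 552, 513 and 690.0 CPM at ZT10 and RD29A had 152, 142 and 124 CPM at ZT6 and 649.9, 608 and 744 CPM at ZT10. No ZT6 library of these 3 genes reached a ZT10 library, and library C was the highest of the ZT10 group in each. KIN2 rose by 2.35 and its near-identical neighbour KIN1 by 2.04, COR47 by 0.90 and COR413IM1 by 1.69. The upstream activator genes CBF3 and CBF1 stood at 3.6 to 5.59 and 0 to 0.385 CPM at ZT6 and at 10.4 to 16.2 and 1.68 to 2.23 CPM at ZT10. These tandem copies also resemble each other closely, so their values are uncertain. All 13 risers had their highest wild-type mean at ZT10.

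Heat-shock genes did not rise as a group, with 3 of 13 higher and 2 lower (median -0.09). HSFA3, a heat-shock factor gene, rose by 1.53 on the log2 scale, from a low ZT6 level that ranged over 1.23 to 1.28 CPM. The chaperone gene HSC70-1 rose by 0.30. Abscisic acid genes fell in 6 of 15 cases with none higher (median -0.73). ABA1, whose enzyme also belongs to the xanthophyll cycle, had 503, 477 and 512 CPM at ZT6 and 142, 127 and 119 CPM at ZT10, and NCED3, the controlled step of abscisic acid synthesis, fell by 0.98. Jasmonate and defence genes gave 3 falls and 2 rises among 19, not far from the 22.5% called among all genes tested. JAZ9, a repressor gene of the pathway, fell by 1.66, and AOC2, a jasmonate synthesis gene, rose by 0.83.

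Of 27 glucosinolate and sulfate-reduction genes, 16 fell and none rose, none by 2-fold, with a median of -0.28. APS1, an ATP sulfurylase gene, had 310.3, 288 and 306 CPM at ZT6 and 222, 180.3 and 222 CPM at ZT10, a fall of 0.53 (SE 0.079). ZT10 library B was the lowest library for APS1. Without that library 5 of the 27 fell, and without ZT6 library A or B 8 and 10 did, so the count rests on single libraries. Phenylpropanoid and flavonoid genes went both ways, 7 of 25 lower and 4 higher. MYB12, a flavonol regulator gene, and its target FLS1 rose by 1.54 and 1.11, and MYBL2, a repressor gene of anthocyanin synthesis, and PAL2, at the head of the pathway, fell by 1.33 and 0.82. Plasma membrane aquaporin genes fell in 9 of 13 cases and rose in 1. PIP2;1 had 1020, 1030 and 994 CPM at ZT6 and 422, 453 and 409.9 CPM at ZT10, a fall of 1.24 (SE 0.073), and PIP1;1 fell by 0.87. Of 8 genes often used as references 6 were not called, where 22.5% of all genes tested were called. UBQ10 fell by 0.50 and ACT2 rose by 0.33, in the main scaling and in each other scaling tried.

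Outside the lists, the largest rises held genes of little known function. AT1G07050, a CCT motif family gene, had 1.01, 1.23 and 0.77 CPM at ZT6 and 80.9, 72.5 and 77.8 CPM at ZT10, a 75-fold rise (log2 6.23, SE 0.16, adjusted p = 2.58e-30). AT1G17665, annotated as a CA-responsive protein, went from 0.385 to 1.01 to 16.9 to 20.2 CPM. AT5G23240, a DnaJ-domain gene, and AT5G23235 overlap each other and share reads, so their rises of 4.77 and 4.45 may be 1 signal. At the other end, AT2G15020, an uncharacterized gene, had 87.3, 73.9 and 81.9 CPM at ZT6 and 2.12, 2.22 and 0.826 CPM at ZT10, a fall of 5.65 (SE 0.18). The CCT motif family gene AT2G46670 fell by 4.57, or by 5.25 without ZT10 library A. NDA1, an alternative NAD(P)H dehydrogenase gene, had 78.9, 72.4 and 77.3 CPM at ZT6 and 6.59, 8.75 and 6.2 CPM at ZT10. AT4G36850, a PQ-loop repeat gene, had 31.5, 36.3 and 41.3 CPM at ZT6 and 3.13, 3.89 and 1.24 CPM at ZT10.

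Several genes with high counts changed at least 2-fold. GER3, a germin-like cell wall gene, had 356, 348 and 311 CPM at ZT6 and 1593, 1680 and 1676 CPM at ZT10, a change of 2.28 (SE 0.20). CP29, a chloroplast RNA-binding protein gene, rose from 641 ± 43.2 to 1816 ± 91.3 CPM (SD, n = 3). OEP6, of the plastid envelope, and THIC, of thiamin synthesis, rose by 2.33 and 1.54, and CCL by 1.22. On the falling side the genes with the highest CPM, a measure that is not per length, were LHCB1.1, LHCB2.1, LHCB2.2, LHCB3, LHCB4.2, RCA, CHLH and CRD1, of the antenna, carbon fixation and chlorophyll synthesis lists.

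**Figure D4:**
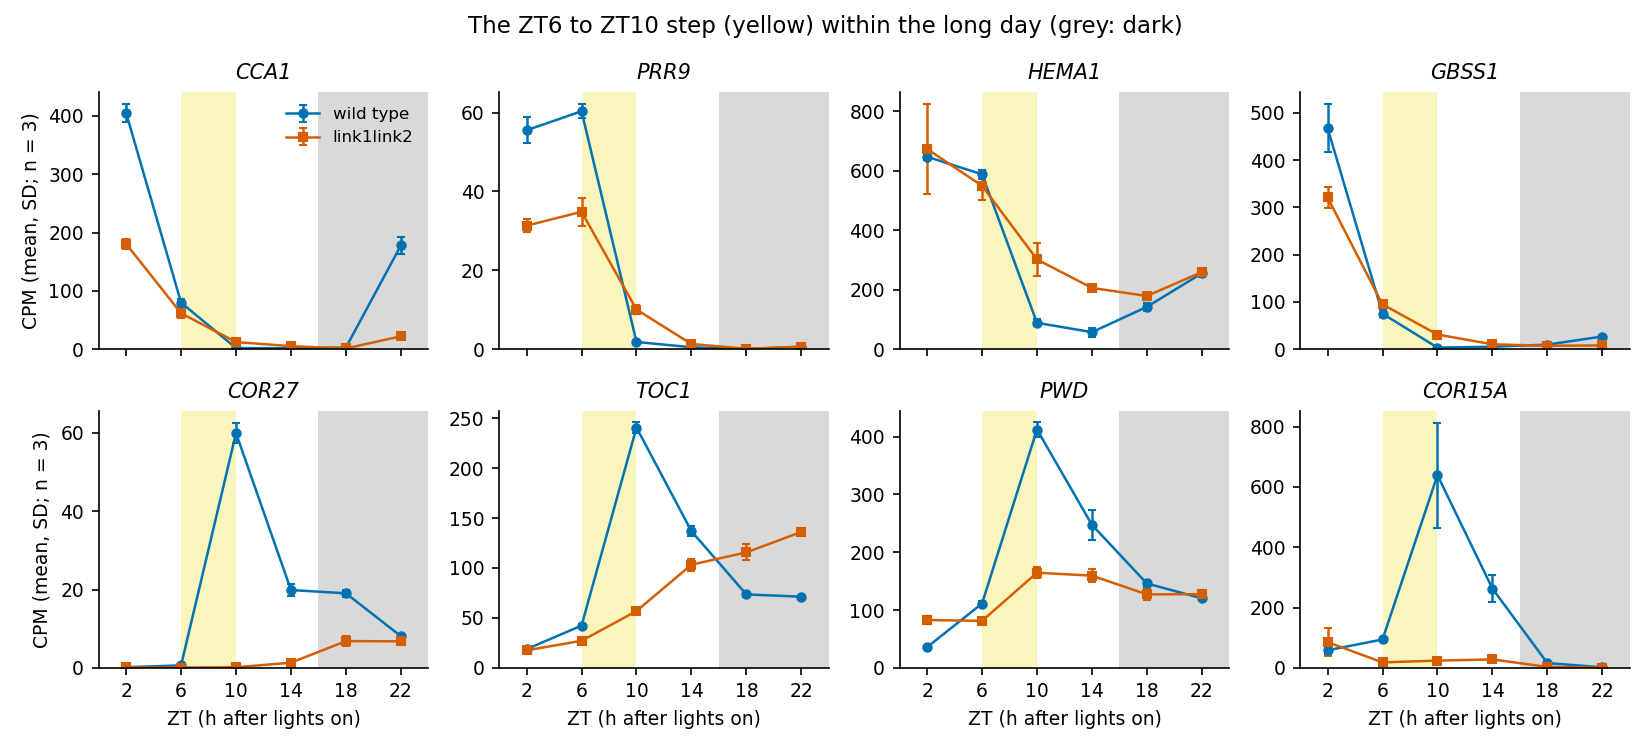
Level of 8 genes over the day (CPM, mean and SD of 3 libraries per time) in wild type and link1link2, with the ZT6 to ZT10 step in yellow and darkness in grey. CCA1, PRR9, HEMA1 and GBSS1 fall through the yellow window and COR27, TOC1, PWD and COR15A rise to their wild-type maximum at its end.

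Whether the step was the same without LNK1 and LNK2 was tested as the difference between the wild-type and link1link2 changes. It was called for 1399 genes (6.82% of 20518). In link1link2 itself 1080 genes were higher at ZT10 (5.26%) and 1373 lower (6.69%). Of the 316 genes at least 2-fold higher in wild type, 132 had a different step, 131 of them with a larger rise in wild type. Their median change was 1.38 in wild type and 0.66 in link1link2. Of the 545 at least 2-fold lower, 350 had a different step and in all 350 the fall was larger in wild type, with medians of -1.46 and -0.53. These genes were chosen by their size in wild type, which by itself makes the wild-type median larger, and which favours a larger wild-type step in any called difference, so neither these counts by direction nor the medians test which genotype had the larger step.

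The smallest p-values for the difference, among genes at least 2-fold changed in wild type, belonged to clock and light-related genes and to genes of other roles. LNK3 fell by 5.97 in wild type and by 1.41 in link1link2 (difference adjusted p = 4.74e-17), and GLK2 by 2.35 and 0.48. GUN4 and BBX28 fell by 2.3 and 3.14 in wild type and by 0.51 and 0.69 in the mutant. JAC1, needed for chloroplast movement to weak light, fell by 2.87 and 0.53. Among the rises, TOC1 had 2.51 in wild type and 1.07 in the mutant (difference adjusted p = 9.92e-16), JMJD5 4.29 and 0.60, and COL9 4.05 and 1.99. OEP16-1, an envelope channel gene, and ERD3 rose by 2.25 and 2.18 in wild type and by 1.12 and 0.66 in the mutant. MT2A, a metallothionein gene, rose by 1.99 in wild type and had a mutant change of -0.24, which did not pass.

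Some lists differed between the genotypes in most members and others in few. The difference was called for 13 of 16 dawn genes, 15 of 21 antenna genes, 10 of 15 cold-response genes and 12 of 22 auxin and cell-elongation genes. It was also called for 19 of 35 light-signalling genes and 11 of 21 evening genes, beside 6.82% of all genes tested. Among genes changed at least 2-fold in wild type, it was called for 132 of 316 risers and 350 of 545 fallers. The lists were chosen with earlier results known and many of their members changed strongly. The part of step size in these list counts was not tested. LNK1 and LNK2 are among the 13 dawn genes, and as the genes mutated in link1link2 they owe their difference to the choice of genotype. In link1link2, 3 of the 15 cold-response genes rose and 1 fell, RD29A, by 0.71 where the wild-type change was 2.26 (difference adjusted p = 9.70e-09). Auxin and cell-elongation genes gave 2 falls and 1 rise in the mutant, with a median of 0.06. PRR5 rose in both, by 1.84 and 2.06 (difference adjusted p = 0.644), from mutant levels of 3.54 to 14.9 CPM, against 30.1 to 107 CPM in wild type. Starch breakdown genes rose in 10 of 19 cases in the mutant, and the difference was called for 5. PWD, GWD1 and BAM3 rose by 1.89, 1.34 and 1.63 in wild type and had mutant changes of 1.02, 0.87 and 0.32 (difference adjusted p = 1.75e-08, 0.00318 and 5.56e-05). The differences for ISA3 and PHS2 were 0.07 and -0.13 with adjusted p = 0.869 and 0.69. A p that misses the threshold does not show that these steps were equal.

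**Figure D5:**
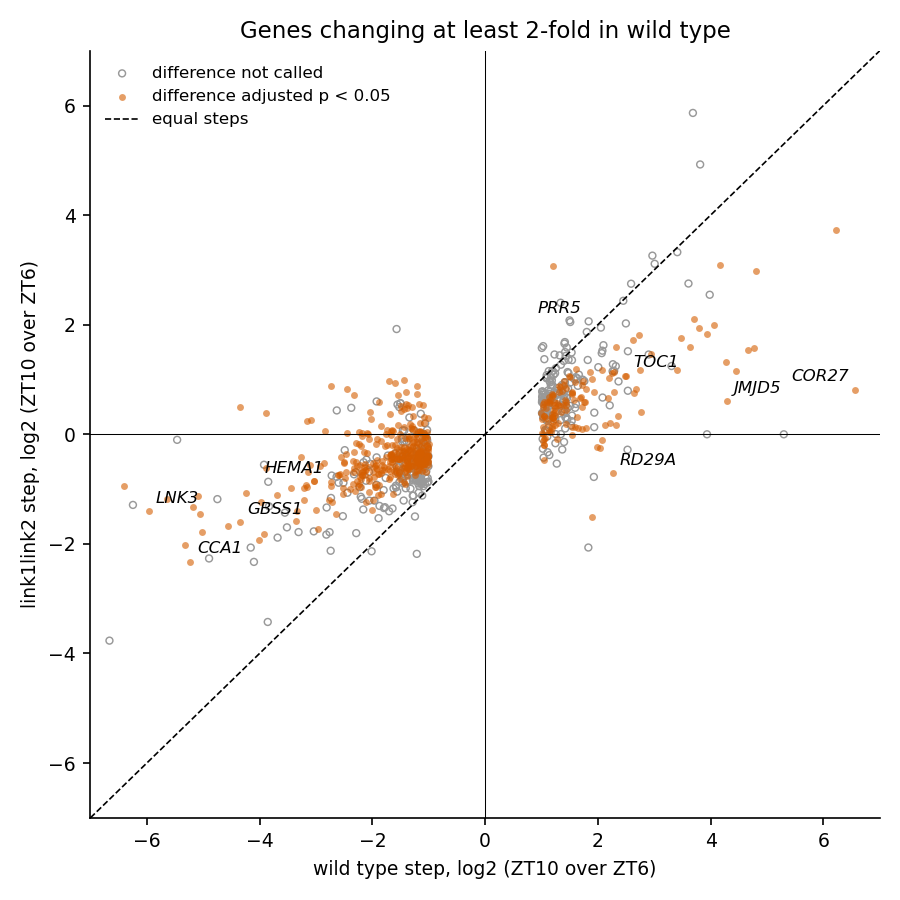
Change from ZT6 to ZT10 in link1link2 (log2, y axis) against that in wild type (x axis) for the 861 genes that changed at least 2-fold in wild type, with orange points where the difference was called. The named genes include RD29A, at 2.26 in wild type and -0.71 in the mutant, and PRR5, at 1.84 and 2.06, close to the dashed line of equal steps.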

How the data were processed

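RNA-seq counts per gene were deposited by the authors as 1 table of the 36 long-day libraries. TruSeq libraries were made from poly(A)-selected RNA, per the labels' protocols. The build, per the submitters' processing notes, was TAIR10. Which aligner and counter were used, and whether strand was, is not given in the sources used here. Column names give genotype, time and a letter, so columns were mapped to groups, not to numbered replicates. The mutant columns carry a name that the labels do not use and were assigned as the only other genotype.

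Of 33602 loci, 97.7% matched the RefSeq annotation (TAIR10.1), which gave names, overlaps and promoter windows. Counts were filtered (filterByExpr), scaled (TMM) and fitted with edgeR 4.0.16 (R 4.3.3, robust quasi-likelihood test, 12 group means, 24 residual degrees of freedom). Genes were called at a Benjamini-Hochberg adjusted p under 0.05, and a 2-fold threshold was set on the fitted change. The fit was also run on simulated counts in which a small set of genes changed, at wild-type ZT10 only. That setting is simpler than these data, and its outcome is not given here. Totals of 7724307 to 12109520 counts per library limit the precision for genes with few counts.

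The 25 gene lists and 6 marker lists were chosen with earlier results of these data known. Named genes were list members, the 12 largest changes per direction (mean of at least 5 CPM, groups not overlapping), and, per direction, the 8 highest in CPM, the 8 with the smallest p for the genotype difference and the 8 with the sharpest peaks. A locus overlapping one with at least 50% as many counts as its own in the 6 libraries was called uncertain. Alternatives were other scalings (RLE, upper quartile), DESeq2 1.42.0, no filter, fewer libraries, a block by column letter, removal of organelle counts, and leaving out each library. The continuous-light libraries were not analysed here.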

Additional observations from a re-analysis of the deposited data

Results flagged for a closer look

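Results are named here because the same contrast, ZT10 against ZT6, differed between wild type and link1link2 by a test of the difference itself (edgeR quasi-likelihood test, adjusted p under 0.05). That held for 1399 genes in all. Differences are wild type minus link1link2 on the log2 scale, each from 3 libraries per genotype and time. Among genes that fell at least 2-fold in wild type, the difference was -4.56 for LNK3, -4.48 for AT2G15020, -2.46 for NDA1 and -2.45 for BBX28. It was -2.34 for JAC1, -2.25 for the glutaredoxin family gene AT1G64500, -1.86 for GLK2 and -1.79 for GUN4. Among genes that rose at least 2-fold in wild type, it was 3.69 for JMJD5, 2.22 for MT2A, 2.07 for COL9 and 1.53 for the protein kinase gene CIPK21. ERD3 had a difference of 1.52, TOC1 of 1.44, PnsL3, a subunit of the chloroplast NDH complex, of 1.14 and OEP16-1 of 1.12. These 16 genes were chosen for the smallest p of the difference.

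In 36 genes the step was called in opposite directions in the genotypes, RD29A and CHE among them. RD29A, which rose in wild type and fell in link1link2, had a difference of 2.97. CHE fell by 0.31 in wild type and rose by 0.22 in link1link2, a difference of -0.54.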

How the results depend on the processing

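The count of genes called between ZT10 and ZT6, 4621, ranged from 3849 to 5232 over 15 alternatives, and that of genes changed at least 2-fold, 861, from 827 to 873, of which 757 to 858 were shared with the reported set. The difference between genotypes, 1399 genes, ranged from 1135 to 1684. DESeq2 called 4064, 837 and 1237. The share of higher genes among those called, 47%, ran from 45.3% to 51.6%. Leaving out 1 wild-type library gave 3849 to 4056 called genes and 837 to 870 at least 2-fold, and leaving out 1 library of either genotype 1135 to 1261 differing steps.

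Column letters match no replicate number in the labels. Deviations of same-lettered ZT6 and ZT10 libraries correlated at -0.018, 0.056 and 0.027, so no pairing by letter was seen. Such correlations, taken over all genes tested with equal weight, cannot exclude one. With the letter as a replicate block 4684, 871 and 1433 genes were called.

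Of 168 genes named, 164 kept direction and call of the wild-type step under every alternative and none reversed. Many were named for being called or large, which favours this. The genotype differences of single genes were not checked in this way. NIA1 and NIA2 were not called in a fit of the compared libraries alone (adjusted p = 0.0843 and 0.0538), and LHCB4.3, LHCB1.3 and NIA1 each lost their call without 1 ZT10 library. Without 1 library the Calvin cycle falls were 7 to 10, the sigma factor rises 1 to 2, the glucosinolate falls 5 to 14 and the reference gene rises 1 to 2, which were 2 with organelle counts removed. The chloroplast share reversed without ZT10 library B, with differences of -0.645 to 0.798 percentage points over the 6 omissions. With 250 bases before the start only, the evening element was in 13.9% of higher genes and 2.46% of all, the morning element in 11.6% of lower and 6.28% of all, and the HUD element in 16.3% of lower and 11.2% of all. Over all windows the CCA1-binding site was then in 6.69%, the G-box in 7.33%, the protein box in 8.80% and the telo-box in 2.06%. The shorter window holds fewer bases.

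Genes with few counts at either time have wide errors, and 44 of 467 tested list loci overlap a locus with at least 50% as many counts. The labels do not say whether the libraries of a time came from separate harvests, so time and harvest cannot be told apart.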

Other observations

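Genes whose wild-type level peaked sharply within the window were ranked by the ratio of the peak mean to the highest mean of the other 5 times. For peaks at ZT10, AT5G62360, an invertase and pectin methylesterase inhibitor family gene, had a ratio of 9.16, with 5.64, 5.25 and 6.42 CPM at ZT6 and 91.2, 78 and 103 CPM at ZT10. AT1G69140 followed with 7.66, and RD29A, AT1G51090, a heavy-metal transport family gene, and FKF1 had ratios of 4.79, 4.47 and 4.17. GRP7, PRR5 and AT4G33980 completed the 8, with 3.88, 3.57 and 3.29.

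For peaks at ZT6 the ratios included 6.92 for AT1G77960, 5.16 for ASN1, 4.69 for AT3G55240 and 4.58 for CIPK20, a protein kinase gene. IAA29 and YUC8, of the auxin list, had 3.01 and 2.79, and J11, a chloroplast DnaJ-domain gene, had 2.7, with 213, 238 and 249 CPM at ZT6 and 87.5, 96.2 and 75.9 CPM at ZT10. At ZT2 and at ZT10 alike, these genes lay below their ZT6 mean by at least that ratio. The choice by ratio fixes that they stand out, and no test was made of it.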
